A study of Mus musculus with 6 samples.

Results

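miR-103 and miR-107 are a pair of near-identical microRNAs (miRNAs) made from introns of the pantothenate kinase genes. Their 5 mature mouse sequences, mmu-miR-103-3p, mmu-miR-103-1-5p, mmu-miR-103-2-5p, mmu-miR-107-3p and mmu-miR-107-5p, written without the species code below, come from a table of 1963 distinct mouse sequences. They were chosen by name, not by a threshold on their reads. Small RNA was sequenced from livers of mice given an adeno-associated virus vector of serotype 9 (AAV9). In both groups the vector held Cre recombinase driven by the Tnnt2 promoter, that of cardiac troponin T, which is active mainly in heart muscle. The Cre-miR122 vector had, besides, a miR122 element, called after the most abundant hepatocyte miRNA. Whether it makes that miRNA or is bound by it is not in the labels, nor are strain, age, dose and time. The labels name 3 Cre-miR122 libraries (replicates 1, 2 and 4) and 3 Cre libraries (replicates 10, 11 and 12). Only Cre-miR122 replicate 2 was analysed here, so the values describe 1 library, no difference between the groups was tested, and no value has a replicate.

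Pantothenate kinases carry out the first step of the synthesis of coenzyme A, which the liver uses to burn and build fatty acids. A miRNA hairpin is cut into a 5p and a 3p arm, one arm is usually kept in the silencing complex, and its seed, bases 2 to 8 from the 5′ end, pairs with target mRNAs. In mice, miR-103 and miR-107 have been reported to rise in the liver of obese animals and to lower insulin sensitivity, with caveolin-1, a membrane protein that stabilises the insulin receptor, as a target.

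miR-103-3p comes from 2 genes and miR-107-3p from 1. In the mm10 (GRCm38) annotation of GENCODE release M21, Mir103-1 lies in intron 5 of Pank3 (ENSMUSG00000018846.8) on chromosome 11, Mir103-2 in intron 5 of Pank2 (ENSMUSG00000037514.17) on chromosome 2, and Mir107 in intron 5 of Pank1 (ENSMUSG00000033610.16) on chromosome 19. Each hairpin is on the strand of its host gene and overlaps no exon of it and no other annotated gene. The hairpins are shown because the reads that can be told apart depend on where they differ. They are RefSeq sequences of GRCm38.p6, written 5′ to 3′, with the mature 5p and 3p arms in capitals. Mir103-1 is at chr11:35782396-35782481 on the plus strand, Mir103-2 at chr2:131288052-131288137 on the plus strand and Mir107 at chr19:34820687-34820773 on the minus strand.
Mir103-1: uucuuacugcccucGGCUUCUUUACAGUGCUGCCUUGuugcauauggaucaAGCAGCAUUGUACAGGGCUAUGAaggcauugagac
Mir103-2: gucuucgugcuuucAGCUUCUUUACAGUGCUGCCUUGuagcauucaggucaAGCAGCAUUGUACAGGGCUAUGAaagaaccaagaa
Mir107: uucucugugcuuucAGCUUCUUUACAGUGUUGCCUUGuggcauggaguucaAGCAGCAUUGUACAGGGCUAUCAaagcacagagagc

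The 3 hairpins are most alike in their arms. Over 86 positions, Mir103-1 and Mir103-2 were identical at 69, Mir103-1 and Mir107 at 69 and Mir103-2 and Mir107 at 73. The 23 bases of the 3p arm are the same in both Mir103 copies and differ from Mir107 by G22C, where the first base is that of miR-103-3p, the second that of miR-107-3p and positions are counted from 1 at the 5′ end. The 5p arms differ by G1A between miR-103-1-5p and miR-103-2-5p and by C16T between miR-103-2-5p and miR-107-5p. The loop of 14 bases between the arms is identical at 9 or 10 positions in each pair of hairpins. A 3p read can therefore be given to miR-103 or miR-107 only if it reaches base 22.

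Both 3p members carry the same seed, which no other sequence of the mouse set had. The seed is in capitals in the RefSeq sequences, and miR-16-5p is shown beside them because its seed is made of nearly the same bases, shifted by 1 position.
miR-103-3p: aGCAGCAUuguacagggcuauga
miR-107-3p: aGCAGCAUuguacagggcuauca
miR-16-5p: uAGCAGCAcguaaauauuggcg

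The library held 8163802 reads over all distinct sequences of the table, 6661069 of them on mouse sequences. Of the 1963 mouse sequences, 546 had a read and 303 had at least 10, which is 15.4%. Percentages are of these mouse reads unless another total is named, and intervals in parentheses are exact Clopper-Pearson 95% intervals. They cover the counting error of reads only, since PCR copies were not separated from molecules. Values of miRNA markers are set beside the label of liver, which was not tested. The labels do not say whether the miR122 element makes that miRNA, so miR-122-5p cannot check the tissue. By mouse entries, the hepatocyte miRNAs miR-148a-3p, miR-122-5p and miR-192-5p held 57.9%, 3.54% and 1.08%, and the striated muscle miRNAs miR-1a-3p, miR-206-3p and miR-133a-3p held 14.7%, 1.03% and 0.0137%. End forms are other species' entries that match a mouse hairpin exactly but start or end at another base than the mouse sequence. With end forms added to marker and total, miR-122-5p held 8.53% and miR-133a-3p 0.145%. By mouse entries, the heart miRNAs miR-499-5p and miR-208a-3p had 251 and 0 reads. Both 3p members are known from many tissues, and which cells their reads came from was not tested. In a bulk sample, fewer cells of a type and less RNA per cell cannot be told apart.

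miR-103-3p was the main member of the pair. Its mouse entry held 7042 reads, 0.106% of mouse reads (0.103 to 0.108), and stood at rank 27. miR-107-3p held 156 reads, 0.00234% (0.00199 to 0.00274), at rank 145. With end forms counted for all mouse sequences the ranks were 34 and 142. miR-107-5p had 1 read, and miR-103-1-5p and miR-103-2-5p had 0, which allows a share of up to 4.5e-05% each with 3 reads as the floor. For a count of 0, the exact upper limit is 5.54e-05%. Thus 2 of the 5 members, the 3p arms, had at least 10 reads. miR-103-3p made up 97.8% of the reads of mouse entries with this seed.

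**Figure D1:**
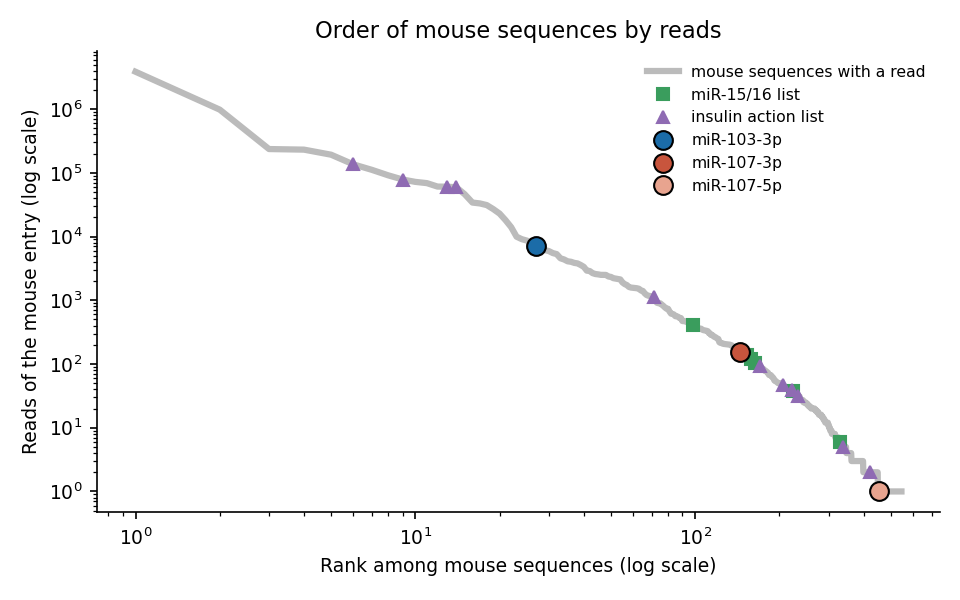
Reads of each mouse entry against its rank among mouse sequences, both on log scales, in the 1 library. miR-103-3p lies at rank 27 with 7042 reads, miR-107-3p at rank 145 with 156 and miR-107-5p among the sequences with 1 read, and squares and triangles mark the miR-15/16 and insulin action lists.

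Reads of the pair were spread over several 3′ ends, and forms other than the 23 nt mouse entries were counted for entries of other species that match the mouse hairpins exactly. The table recorded 11 distinct 3p sequences of the 3 hairpins, which all start at the same base and so have the same seed. The 8 that carry most reads or tell origins apart are shown as the table writes them, with T for U and with the bases after position 21 in capitals, because these bases alone tell miR-103 from miR-107.
either, 21 nt: agcagcattgtacagggctat
miR-107, 22 nt: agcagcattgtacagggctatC
miR-103, 22 nt: agcagcattgtacagggctatG
miR-107, 23 nt, mouse entry: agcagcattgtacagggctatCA
miR-103, 23 nt, mouse entry: agcagcattgtacagggctatGA
miR-103, 24 nt: agcagcattgtacagggctatGAA
miR-103, 25 nt, Mir103-2 only: agcagcattgtacagggctatGAAA
miR-103, 25 nt, Mir103-1 only: agcagcattgtacagggctatGAAG

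miR-103-3p was read mainly at its annotated length. Of the 8045 reads that only miR-103 can give, the 23 nt mouse entry held 7042, or 87.5% (86.8 to 88.3). The 22 nt form held 600 reads, or 7.46% (6.89 to 8.05), and the 24 nt form held 327, or 4.07% (3.64 to 4.52). The forms of 25 nt held 70 and 6 reads. Reads longer than the mouse entry came to 403, or 5.01%, and the reads fell on both sides of the annotated end. The 23 nt entry outnumbered the 22 nt entry contained in it, which cannot happen if a read is counted for every entry it contains.

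miR-107-3p was divided between 2 lengths. Of its 347 own reads, the 22 nt form held 191, or 55.0% (49.6 to 60.4), and the 23 nt mouse entry held 156, or 45.0% (39.6 to 50.4). The 22 nt form had 1.22 reads per read of the mouse entry, with an interval from 0.986 to 1.52 that includes equal numbers. The 25 nt form of miR-107-3p had 0 of 347 reads, which allows a share of up to 0.865% with 3 reads as the floor. Its exact upper limit is 1.06%, above the 0.870% (0.679 to 1.10) of the Mir103-2 form of that length. No 24 nt form of miR-107-3p is recorded in the table, so such reads are not seen. Among reads of 22 and 23 nt, the shorter form took 7.85% (7.26 to 8.48) for miR-103-3p and 55.0% for miR-107-3p, and these intervals do not overlap. A 22 nt read of miR-107-3p equals a 21 nt read of either miRNA with a C added after cutting, and these cannot be told apart here.

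**Figure D2:**
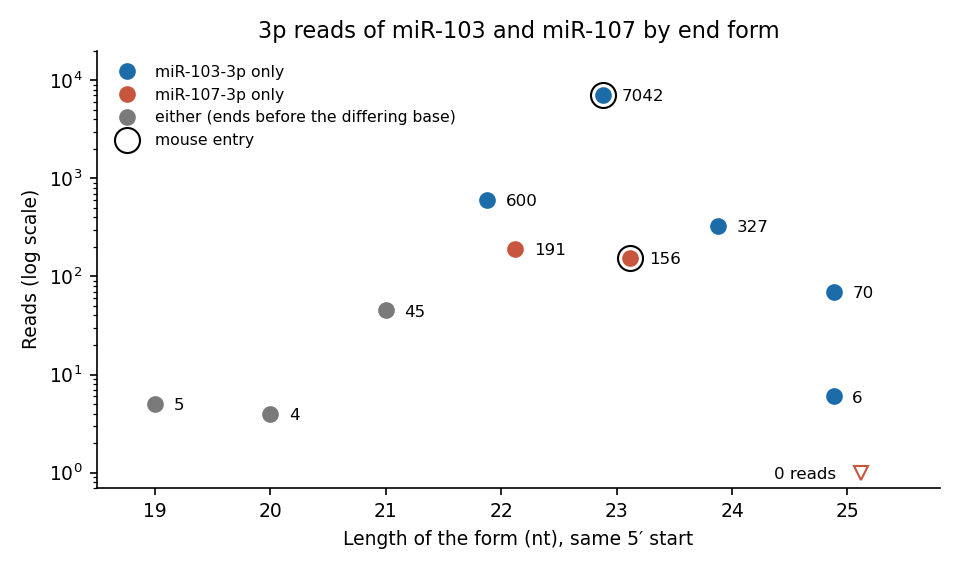
Reads of each recorded 3p form, on a log scale, against its length in nt, coloured by the miRNA that can give it, with mouse entries ringed and an open triangle for a form with 0 reads. miR-103-3p peaks at 23 nt with 7042 reads, while miR-107-3p has 191 reads at 22 nt and 156 at 23 nt.

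Few reads were too short to be assigned. The forms that end before base 22 held 45 reads at 21 nt, 4 at 20 nt and 5 at 19 nt. Together these 54 reads were 0.639% (0.481 to 0.833) of the 8446 reads of the 3p arm of both miRNAs. Other species' lists name the same 21 nt sequence miR-103 in 3 entries and miR-107 in 12, so the name of an entry does not tell the origin of these reads. Among the 1785 mouse sequences of at least 21 nt, 12 shared their first 21 bases with another, which is 0.672%. These 12 form 6 pairs, of which only the present pair and miR-133a-3p with miR-133b-3p, named after its values were seen, had reads. The mouse entries of that muscle pair held 915 and 20 reads, a ratio of 45.8. With end forms of 1 arm only, they held 11609 and 22, a ratio of 528 (348 to 842), so the mouse-entry ratio rests on a small part of the reads of miR-133a-3p.

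Reads of miR-103-3p outnumbered those of miR-107-3p under each count tried, but by how much depended on the forms counted. With mouse entries the ratio was 45.1 to 1 (38.5 to 53.3). With all forms that 1 arm alone can give it was 23.2 to 1 (20.8 to 25.9), from 8045 and 347 reads. Giving all shared forms to miR-103-3p made it 23.3 (20.96 to 26.1), and giving them all to miR-107-3p made it 20.1 (18.2 to 22.2). Between the 22 nt forms alone, with 600 and 191 reads, it was 3.14 (2.67 to 3.72). With the 22 nt form of miR-107-3p left out and all forms of miR-103-3p kept, it was 51.6 (44.0 to 60.8). miR-103-3p is the sum of 2 genes, and adapter ligation favours some small RNAs, so ratios of reads are not ratios of molecules per gene.

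**Figure D3:**
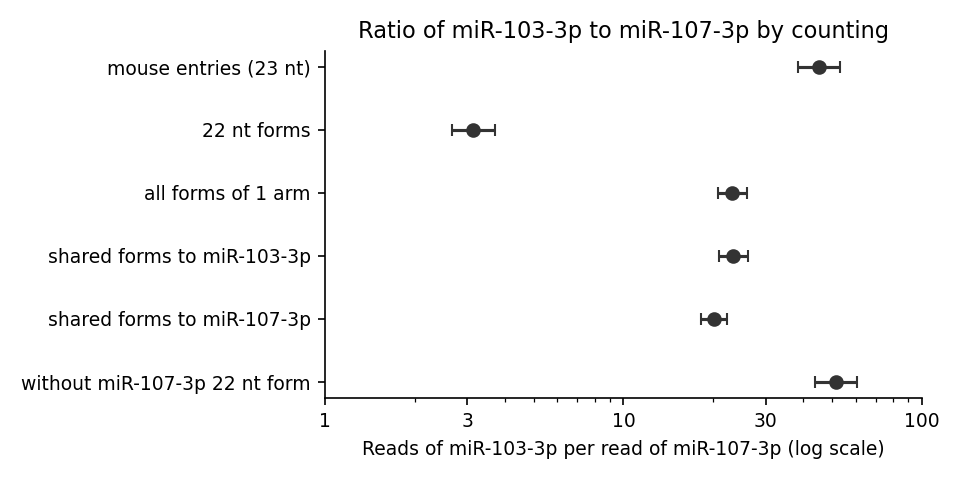
Reads of miR-103-3p per read of miR-107-3p, on a log scale, for 6 ways to count, with exact 95% intervals of counting error in the 1 library. The ratio is 45.1 with mouse entries, 23.2 with all forms of 1 arm and 3.14 between the 22 nt forms.

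The 2 genes of miR-103 could be separated only in the longest reads. The first base after the 3p arm is the same in both copies and the second differs, so forms of 25 nt are specific. The form of Mir103-2, in Pank2, held 70 reads and that of Mir103-1, in Pank3, held 6, a ratio of 11.7 to 1 (5.10 to 32.9). These 76 reads are 0.945% (0.745 to 1.18) of the reads of miR-103-3p, and the other 7969 fit both copies. The Mir103-2 form equals the 24 nt form with an A added, which cannot be told apart from a longer cut, so the ratio is a description of these forms and not of the output of the genes. On the 5p arm, 1 read of a 24 nt form fits Mir103-2 only and 0 fit Mir103-1.

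The 5p arms were nearly unread. The table recorded 13 distinct 5p sequences of the 3 hairpins, and they held 2 reads in all. miR-107-3p had 156 reads per read of miR-107-5p (27.6 to 6201) by mouse entries, and 347 (61.9 to 13740) with end forms. The mouse entry of miR-103-3p was 2347-fold higher than a floor of 3 reads, set for the 0 reads of both 5p entries of miR-103. The exact upper limit on 0 reads lies above this floor, so an exact bound would be lower. With end forms miR-103-3p had 8045 reads to 1 (1444 to 317800). One arm held 100% of the reads of mouse entries for each Mir103 hairpin and 99.4% for Mir107. The same miR-103-3p reads were counted for both Mir103 hairpins, and other arms shared by hairpins likewise recur among the pairs below. Among 147 mouse pairs of arms with at least 100 reads, 1 arm held at least 99% in 90, which is 61.2%, and the minor arm had 0 reads in 44. A share of at least 99% on 1 arm was thus common among the pairs.

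The mouse entry captured more of miR-103-3p than of miR-107-3p, and both values lie within the range of other arms. Over 206 mouse arms with at least 100 reads including end forms, the median share of reads in the mouse entry was 70.1%, with quartiles of 28.2% and 90.9%. An arm without reads in other species' entries stands at 100%, as miR-99b-5p and miR-151-3p do. These shares, and the places of both members among the arms, thus depend on which forms are recorded. In other arms an end form can also start at another base, so the shares do not measure the 3′ end alone. The mouse entry held under 50% in 82 arms, or 39.8%, and miR-107-3p with 45.0% was among them by its value, although its interval reaches 50.4%. miR-103-3p with 87.5% stood above 145 of the 206 arms. An end form had more reads than the mouse entry in 70 arms, or 34.0%, miR-107-3p included. Where the table records a form 1 nt shorter, which it does for 114 arms with at least 100 reads in both forms together, that form took a median of 20.9% and exceeded the mouse entry in 28 arms, or 24.6%. The shorter form took a larger share than in miR-103-3p in 91 of these arms and a larger share than in miR-107-3p in 26. A form 1 nt longer took 4.44% (3.98 to 4.93) of both lengths for miR-103-3p, against a median of 23.9% over 86 arms.

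**Figure D4:**
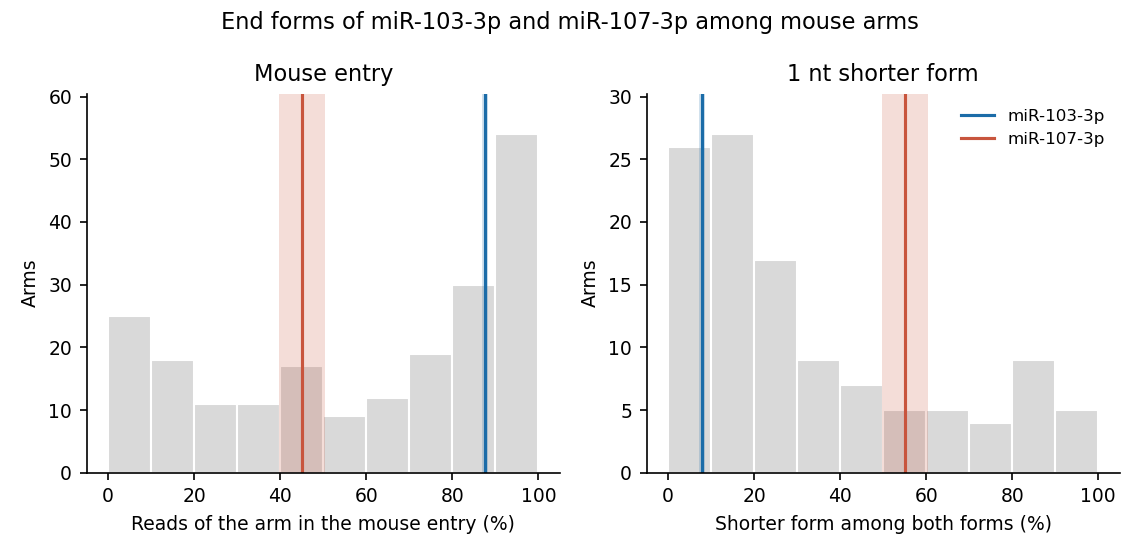
Left, number of mouse arms by the percentage of their reads in the mouse entry (206 arms); right, number of arms by the percentage of the 1 nt shorter form among both lengths (114 arms). Lines mark miR-103-3p and miR-107-3p with shaded exact 95% intervals. miR-107-3p lies at 45.0% and 55.0%, and miR-103-3p at 87.5% and 7.85%. On the left, arms without reads in other species' entries stand at 100%.

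Sequences next in order of reads were used as a measure of likeness in level, over 1 library and by mouse entries. miR-103-3p stood between miR-152-3p with 8653 reads and miR-151-3p with 8121 above it, and miR-434-5p with 6167 and miR-532-5p with 6142 below it. Each of these 4 differed from miR-103-3p beyond counting error, with the closest, miR-434-5p, at 0.876 reads per read (0.846 to 0.906). With end forms miR-151-3p was the closest of the 4, with 8121 reads against 8045, a ratio of 1.01 (0.979 to 1.04) that no longer differed beyond counting error. No end form reads were given to miR-151-3p, and end forms are seen only where another species' entry holds them. miR-107-3p stood between miR-744-5p with 163 and miR-29a-3p with 158 above, and miR-487b-3p and miR-872-5p with 152 each below. None of these 4 differed from miR-107-3p beyond counting error, and the intervals of the ratios ran from 0.774 to 1.31. This held for mouse entries alone. With end forms miR-744-5p had 1516 reads and miR-29a-3p had 904, against 347 of miR-107-3p, while miR-487b-3p had 235 and miR-872-5p had 152, and all 4 ratios, from 0.438 (0.360 to 0.532) to 4.37 (3.89 to 4.92), lay beyond counting error.

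miRNAs of the miR-15/16 list share most of the seed bases of miR-103 and miR-107 and are known from studies of the cell cycle. All 6 had reads and 5 had at least 10, beside the 15.4% of all mouse sequences that did. Of the 11 mouse sequences with the seed of this list, the other 5 had no read. The list thus holds only the sequences of that seed with reads, so its counts cannot be read against the 15.4%. miR-16-5p held 408 reads, miR-195a-5p 136, miR-322-5p 118, miR-497a-5p 38 and miR-15a-5p 6 reads. miR-15b-5p, between miR-322-5p and miR-497a-5p, held 0.00155% (0.00126 to 0.00188) of mouse reads. miR-103-3p was above all 6 and miR-107-3p above all but miR-16-5p, both by mouse entries and with end forms. Its lead over miR-195a-5p was within counting error by mouse entries, at 1.15 to 1 (0.906 to 1.45), and beyond it with end forms, at 1.25 to 1 (1.07 to 1.47). The list held 809 reads, or 0.0121% (0.0113 to 0.0130), and its median member had 110.5 reads, beside a median of 0 over all mouse sequences and 18 over those with a read. This median leaves out the 5 unread sequences of the seed and would be lower with them. Reads of miR-103-3p alone outnumbered the list 8.70 to 1 (8.09 to 9.37), and 5.19 to 1 (4.92 to 5.49) with end forms. Its ratio to miR-16-5p was 17.3 (15.6 to 19.1), and 8.40 (7.85 to 8.99) with end forms, a move of over 1.5 times that comes mainly from the rise of miR-16-5p from 408 to 958 reads. miR-16-5p had 2.62 reads per read of miR-107-3p (2.17 to 3.17), and 2.76 (2.44 to 3.13) with end forms.

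In a chosen list of 13 miRNAs reported to act on insulin action, glucose handling or insulin secretion, miR-103-3p was in the upper part and miR-107-3p near the middle. Whether the list is complete was not checked, so both places hold within its 13 members only. The list had reads for 12 members, beside 546 of the 1963 mouse sequences, and at least 10 reads for 10, beside 15.4%. The list had a median of 92 reads, beside 0 over all mouse sequences and 18 over those with a read. Its members were picked as miRNAs already reported to act there, so its counts and median cannot be read against all mouse sequences. With end forms its median was 157 reads. Of the list, 4 members exceeded miR-103-3p. miR-143-3p, which impairs insulin action in the liver of obese mice, held 135826 reads or 2.04%. miR-26a-5p, which improves insulin sensitivity when raised in mouse liver, held 78540 or 1.18%. miR-378a-3p, from an intron of the metabolic gene Ppargc1b, held 60512 or 0.908%, and miR-126a-3p, an endothelial miRNA, held 59356 or 0.891%. miR-181a-5p, next in order with 1131 reads, was below miR-103-3p and above miR-107-3p. In all, 6 members exceeded miR-107-3p, the last of them miR-29a-3p with 158 reads against 156, which is within counting error. With end forms the number was again 6, but miR-29a-3p then had 904 reads against 347, a ratio of 2.61 (2.30 to 2.96). miR-375-3p, a miRNA of pancreatic islets, had 39 reads. miR-33-5p, from an intron of Srebf2 and named after its value was seen, had 0.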

How the data were processed

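Liver total RNA was ligated to adapters at both RNA ends, copied, amplified by PCR, size-selected and sequenced as single-end Illumina reads, per the labels' protocols, which name no molecular identifiers. The deposited table gives raw counts of reads, as whole numbers, for each of 48885 mature miRNA entries of many species in 1 cleaned library, per the file headers. The column name holds the title of Cre-miR122 replicate 2 alone. The submitters' processing notes name mm10. Neither the counting program nor its settings were stated, and the list release was not given in the sources used here. Depth is the 8163802 reads over 30721 distinct sequences.

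Entries with the same sequence had equal counts, so each distinct sequence was used once. Other species' entries were matched exactly to 2202 mouse hairpins from GENCODE M21 (GRCm38, the assembly of mm10) and taken as end forms of the mouse sequence they overlapped by at least 15 nt, if that was the same at each place found. Forms that fit both 3p members were kept apart. RefSeq sequences (GRCm38.p6) matched all 5 members. For a ratio of reads, the exact interval is binomial, conditional on the summed reads. The calculations were tested on simulated data. With 1 library, no test between groups was made. The members, lists and comparisons were chosen with earlier results of these data known. The text names the 5 members, their end forms with at least 10 reads, the miR-15/16 list, the 5 highest of the insulin action list, 2 neighbours on each side in order of reads, and tissue markers. Forms with fewer reads are named to complete the count. Alternatives were other totals, counting of end forms and shared forms, overlap of 18 nt, forms of at least 20 nt and, added after seeing the data, sequences with at least 10 reads and omission of the 22 nt form of miR-107-3p. Tools were Python 3.11.15 with SciPy 1.17.1, NumPy 2.4.6, pandas 2.3.3 and, for figures, matplotlib 3.10.9.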

Additional observations from a re-analysis of the deposited data

Results flagged for a closer look

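Reads in entries of other species lay outside the count of mouse entries and were above the floor of 3 reads for 3 sets of sequences. End forms of miR-103-3p in such entries held 1003 reads. The 22 nt form of miR-107-3p held 191 reads, more than the 156 of its mouse entry. Forms that fit both miRNAs held 54 reads. No control library was analysed, so these sets were compared with the floor only.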

How the results depend on the processing

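With all distinct sequences as the total, miR-103-3p held 0.0863% and miR-107-3p 0.00191%. With end forms, they held 0.100% and 0.00432%, the insulin action list 6.47% in place of 5.04% and the miR-15/16 list 0.0193% in place of 0.0121%. When miR-148a-3p was left out of the total, the 4 shares were 0.251%, 0.00556%, 11.97% and 0.0288%. The ratio of miR-103-3p to miR-107-3p was 45.1 by mouse entries, 23.2 with end forms of 1 arm, 23.3, 20.1 and 23.3 with shared forms given to miR-103-3p, given to miR-107-3p or split, and 51.6 without the 22 nt form of miR-107-3p, a choice made after seeing the data. The 3p to 5p ratio of miR-103, 2347 by mouse entries against the floor of 3 reads, was 8045 with end forms. Each move is set by which reads an alternative counts. The ratio of 51.6 is within the upper bound of 53.3 on the first value. It and 7 other values stayed within the interval of counting error of the value first given, among them those with an overlap of 18 nt, with forms of at least 20 nt and with sequences of at least 10 reads. No paired analysis was possible because the only library analysed has no partner in the Cre group, and no replicate could be left out. Depth limits the 5p arms, with 2 reads in all, and the forms of 25 nt, with 76.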

Other observations

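Entry names and sequences did not always go together. The 176 entries named miR-103 or miR-107, of all species, hold 35 distinct sequences, and 55 entries carry the sequence of mouse miR-103-3p. Summed over entries, they would give 396335 reads, 46.9 times the 8450 of their distinct sequences. The entries fru-miR-107 of Fugu and eca-miR-107a of horse are named after miR-107 but hold the sequence of miR-103-3p, with 7042 reads each. Of the 35 sequences, 11 lie in none of the 3 mouse hairpins. They held 2 reads, both of dre-miR-107b of zebrafish, which differs from the 21 nt shared form by A20T, counted from 1 at the 5′ end. The entries named miR-103b of human and marmoset are the exact reverse complement of miR-103-3p, as a transcript of the opposite strand would give. They had 0 reads, which at the floor of 3 reads allows a share of up to 4.5e-05% of mouse reads. These entries were chosen with their values in view.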
